A study of Caenorhabditis elegans with 8 samples.

Results

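The genes described here are the noncoding RNA genes of whole adult Caenorhabditis elegans: every gene that the deposited table gives the biotype ncRNA and that had a summed raw count of at least 40 over the 8 samples. They number 145 of the 1657 ncRNA genes in the table (8.8%). The table holds 20871 genes, of which 14556 reached the same summed count. The other 1512 ncRNA genes had summed counts of 1 to 39. Just inside the limit lay T22E5.10, Y7A9A.79 and W10D5.5 with 40, 41 and 42 counts, and just outside it lay anr-23, C32A3.5 and 21ur-10392 with 39 counts each. RNA came from 4 samples of worms fed HT115 Escherichia coli making double-stranded RNA against mtch-1, written mtch-1(RNAi), and from 4 samples fed HT115 with the empty L4440 vector (EV). Worms of both groups hatched on ampicillin plates with 1 mM IPTG at 20 °C, were fed bacteria whose plasmids had been induced for 3 h at 37 °C with IPTG at 5 mM, and were frozen at day 3 of adulthood. The labels name no strain. RNA was from whole animals, so fewer cells of a type and less RNA per cell cannot be told apart.

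Noncoding RNA genes make transcripts that act without being translated. Long intervening noncoding RNAs (linc genes) and antisense RNAs (anr genes) are spliced or unspliced transcripts named mainly from their position relative to coding genes. The 21ur genes encode piRNAs, short germline RNAs that guide the Argonaute PRG-1 to foreign transcripts. Many other worm ncRNA genes carry only a sequence name and come from predictions or small RNA cloning. A few are well studied: tts-1 RNA is abundant in long-lived insulin pathway mutants and bound to ribosomes, rncs-1 is a starvation-induced RNA that inhibits Dicer, and rpr-1 is the RNA of ribonuclease P.

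The knockdown target was measured first. In mtch-1(RNAi), mtch-1, a homolog of the mitochondrial outer membrane carrier MTCH, had 50.4, 57.9, 34.2 and 46.0 CPM, against 265.2, 286.8, 275.4 and 291.9 CPM in EV. CPM are counts scaled by the TMM-adjusted library size to a common unit of depth. The log2 fold change of mtch-1(RNAi) over EV was -2.57 (standard error 0.11, edgeR adjusted p = 5.13e-08). Total counts were 20626184 to 22748868 in mtch-1(RNAi) and 18710833 to 23608608 in EV, and at least 1 count was found for 17869 to 18224 genes in mtch-1(RNAi) and 17241 to 17655 genes in EV. In mtch-1(RNAi), 3 of 5 oocyte and germline markers (rme-2, oma-1 and puf-5) were called lower (edgeR adjusted p under 0.05), with a summed level of 3354.7 to 3552.2 CPM, against 3829.1 to 4101.1 CPM in EV. Of 3 hypodermal collagen markers, dpy-7 was called higher (log2 fold change 1.09), while col-19 and rol-6 had -0.08 and -0.38 and were not called, and the median of the 3 was -0.08. No intestinal, muscle or neuronal marker was called. Sperm, embryo and male markers lay at or near 0, at up to 0.605, 3.95 and 0.372 summed CPM in mtch-1(RNAi) and up to 0.397, 3.38 and 0.481 summed CPM in EV.

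All 145 genes were found in the Ensembl annotation of release 115 on WBcel235, 131 of them with the same span as in the table. That release classes 93 as ncRNA, 39 as lincRNA, 8 as antisense RNA, 3 as piRNA, 1 as a microRNA (mir-8192, also F22D3.9) and 1, C03D6.9, as protein-coding. The lengths ran from 17 to 4071 bases with a median of 163, and 71 genes were at most 150 bases long. By chromosome there were 29 on I, 32 on II, 24 on III, 18 on IV, 24 on V and 18 on X.

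The current annotation places many of these genes inside the transcripts of other genes. In all, 58 shared an exon with another gene on the same strand and 21 only with a gene on the opposite strand, 6 lay in a same-strand intron and 9 in an opposite-strand intron, and 51 overlapped no annotated gene. Of the 58, 45 shared an exon with a protein-coding gene that was itself tested, and 38 of these lay wholly within its exons. The 45 genes held 59.02% of all counts of the noncoding RNA genes. By part, 30 lay in a 3' UTR, 8 in a 5' UTR, 6 in coding sequence and 1 in the exon of a noncoding transcript of the coding gene. Of the 30 in a 3' UTR, 29 reached past the downstream end of the span that the deposited table gives the coding gene. R166.6 overlapped the end of the mnk-1 span and ran past it. The gap to the span was 0 to 1749 bases, with a median of 353.5 bases over the 30. Reads of a separate RNA and of the mRNA cannot be told apart in the counts of such a gene. Whether the counting used strand is not given in the sources used here, so the same holds for the antisense neighbours.

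Together the 145 genes held little of the RNA. Their counts were 0.118% to 0.140% of the total in mtch-1(RNAi) samples and 0.0955% to 0.112% in EV samples. Summed levels were 1337, 1283, 1145 and 1230 CPM in mtch-1(RNAi), against 1136, 1158, 1066 and 1000 CPM in EV. The highest EV sample lay above the lowest mtch-1(RNAi) sample, the ratio of the means was 1.15, and mtch-1(RNAi) was higher in 4 of 4 same-numbered pairs. One gene, R166.6, held 21.97% of the counts of all 145, and the 10 most abundant held 62.41%. Without R166.6 the summed level was 918 ± 54.4 CPM in mtch-1(RNAi) and 914 ± 61.1 CPM in EV (SD, n = 4 each). The 66 genes that shared no exon summed to 388 ± 30.1 CPM in mtch-1(RNAi) and 379 ± 32.5 CPM in EV. In both of these sums the means differed by less than the spread between samples, and mtch-1(RNAi) was higher in 2 of 4 pairs.

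**Figure D1:**
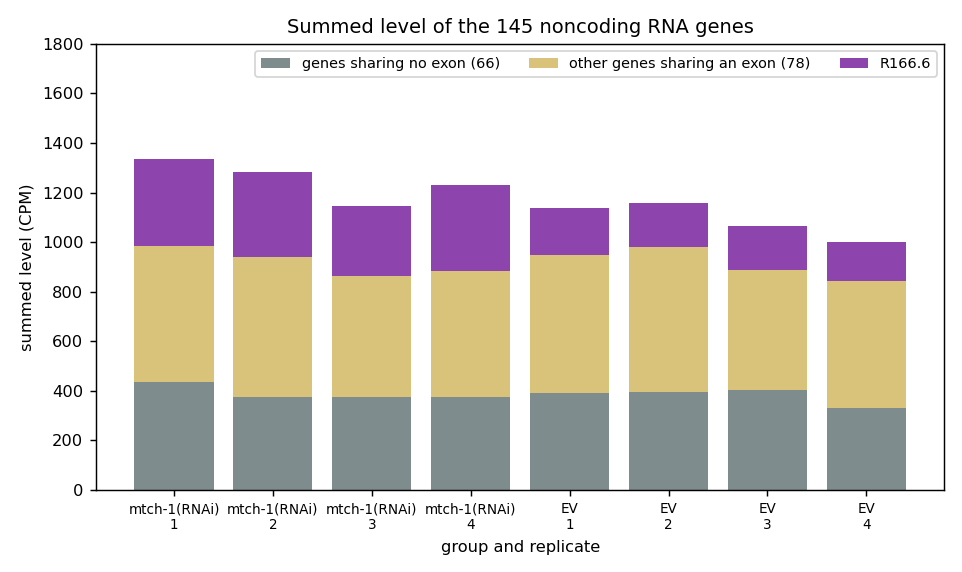
Summed level of the 145 noncoding RNA genes in CPM (vertical axis) in each sample, split into R166.6, the 78 other genes that share an exon with another gene and the 66 that share none. The segment for R166.6 is taller in the 4 mtch-1(RNAi) samples, at 280.7 to 353.0 CPM, than in the 4 EV samples, at 157.1 to 186.5 CPM, while the other segments sum to 864 to 984 CPM in mtch-1(RNAi) and 843 to 978 CPM in EV.

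R166.6 and T05E11.9 were the most abundant noncoding RNA genes that rose, and C06A1.12 and C41C4.19 the most abundant that fell, while tts-1, rncs-1 and rpr-1 did not pass the test. Tested with edgeR over all 14556 genes, 9 of the 145 genes were called higher in mtch-1(RNAi) and 6 lower, at an adjusted p under 0.05. These are 6.21% and 4.14% of them, beside 8.83% of all tested genes called higher and 12.1% called lower. At an unadjusted p under 0.05 there were 31. Groups that did not overlap were seen in 12 genes with higher and 8 with lower levels, where 10.8% and 13.3% of all tested genes showed the same. By biotype, 8.81% of tested protein-coding genes were called higher and 12.4% lower, 11.3% and 1.37% of tested pseudogenes, and 7.14% and 7.14% of tested snoRNA genes. The median log2 fold change was 0.04, beside 0.02 over all tested genes, and the median standard error was 0.31 on the log2 scale, beside 0.14. Levels of these genes were low: the median was 1.09 CPM, beside 10.3 CPM over all tested genes, and 69 of 145 were under 1 CPM. Among the 39 genes of at least 5 CPM, 4 were called higher and 5 lower (10.3% and 12.8%), where 10.4% and 19.6% of all tested genes at that level were called. Among the 106 below it, 5 were called higher and 1 lower (4.72% and 0.943%), where all tested genes below it gave 6.61% and 1.33%. The share of calls in either level class was thus near or below that of all genes at similar levels.

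Samples of the same replicate number deviated together from their group means, but the labels state no pairing. The pairing is taken from these same data, and the p-values with the block rest on it. With the number as a block, 12 of the 145 genes were called higher and 10 lower, where 13.4% and 15.9% of all tested genes were called. All 15 calls of the fit without the block were among these 22. The 7 added were M01D7.11, linc-7 and C30E1.9 higher, and Y41D4B.33, R10E11.13, linc-40 and Y46E12BM.1 lower. The count of higher calls was 5 when either replicate 1 or replicate 4 of mtch-1(RNAi) was left out and 4 when EV replicate 3 was. Without mtch-1(RNAi) replicate 4, anr-35 fell under the summed count of 35 and was not tested, so its call was not lost by a test. In all, 8 of the 15 calls held under every alternative that tested the gene.

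**Figure D2:**
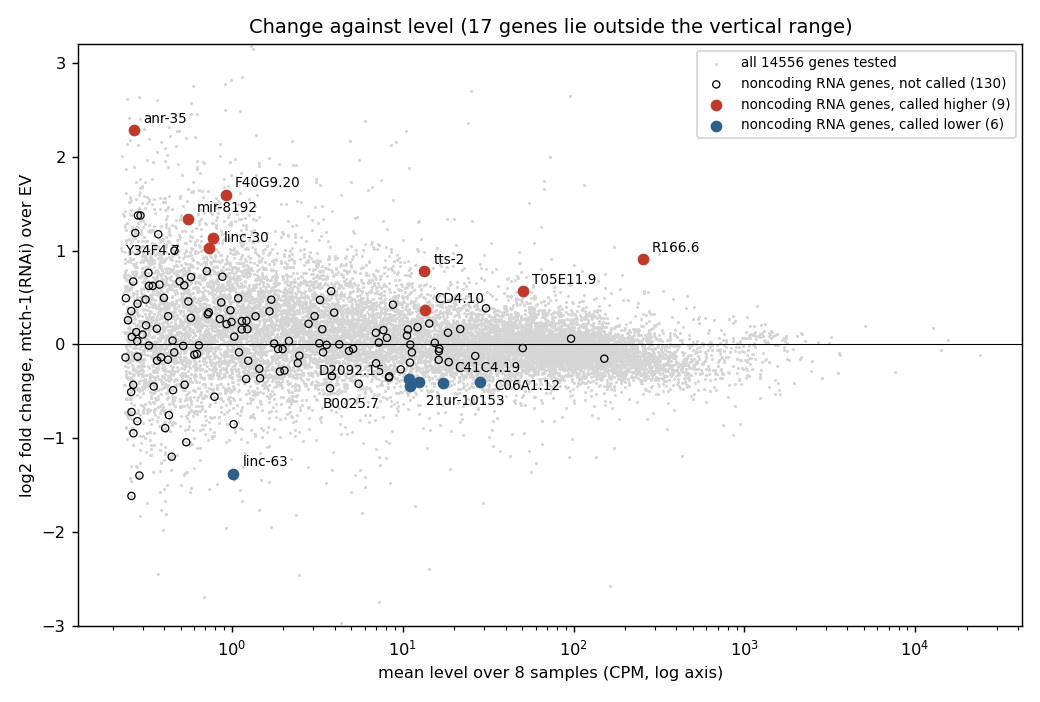
Log2 fold change of mtch-1(RNAi) over EV (vertical axis) against the mean level in CPM over the 8 samples (log axis) for all 14556 tested genes in grey and the 145 noncoding RNA genes as circles, filled where called. The called genes of at least 5 CPM lie within a log2 fold change of -0.45 to 0.91, and those with the widest changes, such as anr-35 at 2.28, lie at low levels.

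R166.6 was the most abundant of these genes and had the lowest adjusted p. It lies on the minus strand of chromosome II, at 10542425 to 10544215, is 1791 bases long in a single stretch and falls wholly within the 3' UTR of mnk-1, which encodes a kinase of the family that phosphorylates translation initiation factor eIF4E. R166.6 had 353.0, 343.7, 280.7 and 345.8 CPM in mtch-1(RNAi), against 186.5, 179.8, 180.8 and 157.1 CPM in EV. Every mtch-1(RNAi) sample lay above every EV sample, and mtch-1(RNAi) replicate 3 lay below its group. R166.6 thus had a log2 fold change of 0.91 (standard error 0.07, edgeR adjusted p = 7.9e-06, and 2.02e-06 to 7.46e-05 with any 1 sample left out). The mnk-1 gene, as counted, changed alongside it: 456.0, 428.6, 363.0 and 422.8 CPM in mtch-1(RNAi) and 242.8, 210.3, 183.3 and 221.8 CPM in EV, a log2 fold change of 0.96 (standard error 0.08, edgeR adjusted p = 1.37e-05). Again the groups did not overlap, and mtch-1(RNAi) replicate 3 was the lowest of its group in both genes. Per kilobase of length, the mean level over the 8 samples was 142 CPM for R166.6 and 114 CPM for mnk-1.

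Of the 30 noncoding genes that lie in a 3' UTR, R166.6 was called higher, 4 were called lower and 25 were not called, where 8.83% and 12.1% of all tested genes were called higher and lower. The coding gene was called in the same direction for all 5 called genes, and for 5 of the 25 others the coding gene alone was called. B0025.7, at chromosome I 6022267 to 6022337, lies in the 3' UTR of ints-1, the large scaffold subunit of the Integrator complex that cuts the ends of small nuclear RNAs. It had 8.35, 9.86, 9.54 and 9.38 CPM in mtch-1(RNAi), against 13.6, 13.2, 11.9 and 11.9 CPM in EV. Its log2 fold change was -0.45 (standard error 0.11, edgeR adjusted p = 0.0104) and that of ints-1 was -0.37 (edgeR adjusted p = 0.000368). The groups of both genes did not overlap.

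The genes C41C4.18, C41C4.19 and C41C4.20 lie within 1 kb of each other on chromosome II in the 3' UTR of ulp-4, which encodes a SUMO protease linked to the mitochondrial unfolded protein response. Only C41C4.19, at 8133676 to 8133746, was called. It had 13.2, 16.01, 14.6 and 15.6 CPM in mtch-1(RNAi), against 20.4, 19.4, 21.02 and 18.2 CPM in EV, with no overlap and a log2 fold change of -0.41 (standard error 0.09, edgeR adjusted p = 0.00758). Its neighbours C41C4.18 and C41C4.20 had log2 fold changes of -0.19 and -0.19, with edgeR adjusted p of 0.153 and 0.280, beside -0.23 for ulp-4 (adjusted p = 0.00623). The 3 genes share a host, so they are not independent of each other, and the difference between them was not tested.

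D2092.15, 56 bases on chromosome I at 6598989 to 6599044, lies in the 3' UTR of maco-1, which encodes the neuronal membrane protein macoilin. It had 9.15, 9.42, 10.2 and 9.19 CPM in mtch-1(RNAi), against 12.1, 13.3, 12.2 and 11.5 CPM in EV, a log2 fold change of -0.37 (standard error 0.10, edgeR adjusted p = 0.0242). The groups did not overlap. The call was lost at adjusted p of 0.0533 to 0.0713 without mtch-1(RNAi) replicate 1, 2 or 4 or EV replicate 2, and at 0.0517 without a filter on counts.

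The piRNA gene 21ur-10153, listed as F14E12.3, is 21 bases long at chromosome IV 13893696 to 13893716 and lies in the 3' UTR of lin-66, a gene of developmental timing. It had 11.1, 11.5, 10.4 and 9.86 CPM in mtch-1(RNAi), against 14.99, 13.7, 12.8 and 14.96 CPM in EV, so that no sample of one group reached the other. This gave a log2 fold change of -0.40 (standard error 0.10, edgeR adjusted p = 0.0163), beside -0.38 for lin-66. Its adjusted p was 0.0547 without mtch-1(RNAi) replicate 4 and 0.0559 without EV replicate 4. At 591 CPM per kilobase it stood far above the other 2 piRNA genes, 21ur-14269 at 49.2 and 21ur-15630 at 14.9 CPM per kilobase, neither of which was called. Those 2 lie opposite exons of cdk-12 and Y38F2AL.12, so that 21ur-10153 alone shares a same-strand exon. The lin-66 gene had 75.9 CPM in mtch-1(RNAi) and 98.9 CPM in EV, and its reads cannot be told apart from those of 21ur-10153. A read longer than a gene of this size still counts once for it, so that levels per length of the shortest genes are on another footing than those of long ones. The read length is not given in the sources used here.

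The sixth called gene in this class, Y34F4.7, covers 93 bases of the 5' UTR of clc-25, which encodes a claudin-like membrane protein. Its level was 1.34, 0.84, 1.07 and 0.667 CPM in mtch-1(RNAi), against 0.497, 0.607, 0.428 and 0.399 CPM in EV, with no overlap. The log2 fold change was 1.03 (standard error 0.33, edgeR adjusted p = 0.0416), while clc-25 had 0.27 (standard error 0.27, adjusted p = 0.526), and the difference between the 2 was not tested. The call was lost at adjusted p of 0.0534 to 0.131 without mtch-1(RNAi) replicate 1, 2 or 3 or EV replicate 1, 3 or 4, and with DESeq2, limma-voom or no count filter at 0.0706, 0.0584 and 0.0559.

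Over the 45 genes with a tested same-strand coding partner, 5 were called together with their partner in the same direction and 0 in the opposite one. In 10 pairs the coding gene alone was called, in 1 the noncoding gene alone, and in 29 neither, with edgeR. Over all tested genes, 8.83% were called higher and 12.1% lower. The 45 genes had 41 different partners, because ulp-4, npp-8 and W02H5.2 each entered with more than 1 noncoding gene. The pairs are therefore not all independent. The log2 fold changes had the same sign in 33 of the 45 pairs, and in 23 of the 30 that lay in a 3' UTR. How often other pairs of genes share a sign was not measured. Both genes of a pair were counted in the same libraries. The coding genes called without their noncoding member included egl-30, a G protein alpha subunit, and npp-8, a nuclear pore protein. M01D7.11, in the 3' UTR of egl-30, had a log2 fold change of 0.42 and an adjusted p of 0.0701, or 0.0102 with the replicate block. Y41D4B.33, in coding sequence of npp-8, had -0.42 and 0.0718, or 0.0386 with the block, and Y41D4B.34 in the same gene had -0.16 and 0.305. Y41D4B.33 and Y41D4B.34 lie 20963 and 15805 bases beyond the end of the span that the deposited table gives npp-8. R10E11.13, in the 3' UTR of the histone acetyltransferase gene cbp-1, had -0.34 and 0.113, or 0.0341 with the block. The gene cbp-1 itself was not called, with a log2 fold change of -0.13 and an edgeR adjusted p of 0.154. Y46E12BM.1, in coding sequence of spsb-1, had -0.35 and 0.154, or 0.0462 with the block.

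**Figure D3:**
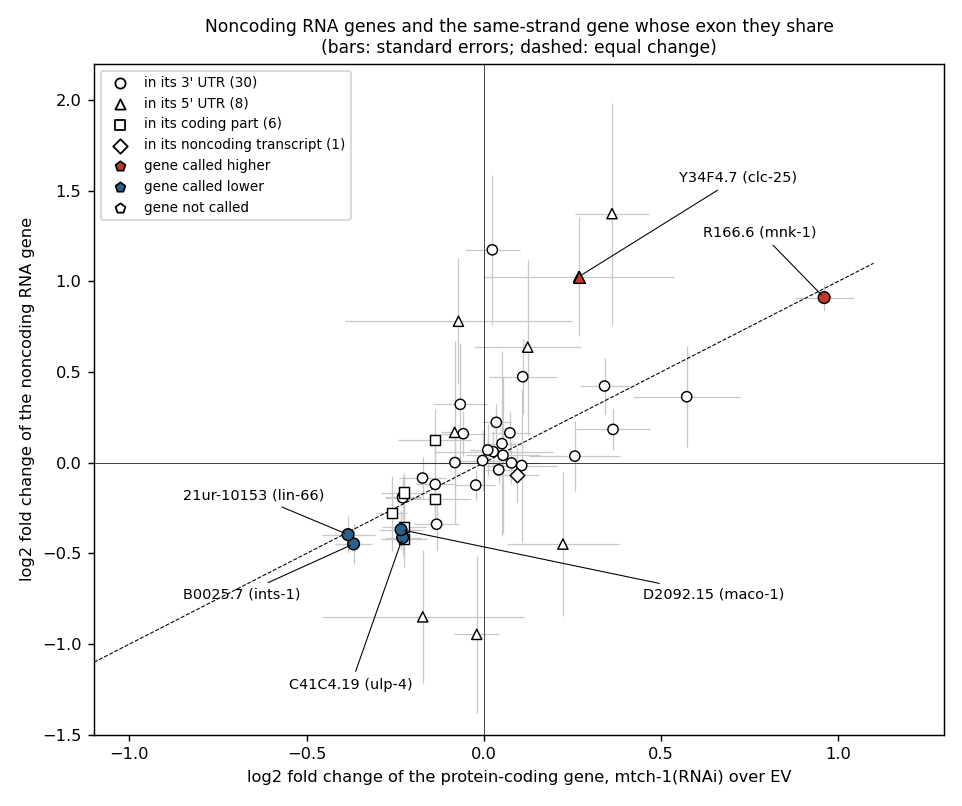
Log2 fold change of 45 noncoding RNA genes (vertical axis) against that of the same-strand protein-coding gene whose exon they share (horizontal axis), both mtch-1(RNAi) over EV, with standard errors as bars; marker shapes give the part of the coding gene and filled markers the called noncoding genes. R166.6 with mnk-1 at 0.91 and 0.96 lies near the line of equal change. The 4 genes called lower lie below 0 on both axes, with C41C4.19 at -0.41 beside -0.23 for ulp-4. Y34F4.7 lies above the line, at 1.03 beside 0.27 for clc-25, with standard errors of 0.33 and 0.27. Departures from the line were not tested.

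Several of the genes with the highest levels were not called. F20C5.10, 56 bases in the 3' UTR of elli-1, had the highest level per length of all 145, at 901 CPM per kilobase over the 8 samples. It had 45.4, 56.3, 51.0 and 46.4 CPM in mtch-1(RNAi) and 51.0, 53.9, 51.1 and 48.5 CPM in EV, with overlapping groups and a log2 fold change of -0.04 (standard error 0.07, edgeR adjusted p = 0.753). K10C3.13 and F58D5.13 followed among uncalled genes at 295 and 226 CPM per kilobase, with log2 fold changes of -0.12 and 0.18. C28H8.14, which overlaps no other gene, had 157 CPM per kilobase and a log2 fold change of -0.05. W06H8.5, 2525 bases in the 3' UTR of W06H8.6, was the third most abundant gene by CPM, at 98.7 ± 8.84 CPM in mtch-1(RNAi) and 94.7 ± 18.3 CPM in EV (SD, n = 4 each), and was not called.

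Of the 51 genes that overlap no annotated gene, 5 were called higher and 2 lower (9.80% and 3.92%, beside 8.83% and 12.1% of all tested genes). T05E11.9, 1162 bases on chromosome IV at 11106418 to 11107579, was the most abundant of the 7. It had 67.3, 60.3, 49.9 and 62.6 CPM in mtch-1(RNAi), against 40.2, 46.3, 37.0 and 39.1 CPM in EV. The groups did not overlap, and the log2 fold change was 0.56 (standard error 0.09, edgeR adjusted p = 0.00104). The nearest tested same-strand coding gene, clc-9, lies 5362 bases away and had a log2 fold change of 0.17 (adjusted p = 0.801) at under 1 CPM.

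C06A1.12, 190 bases on chromosome II at 10574651 to 10574840, was called lower. Its level was 21.3, 26.2, 23.4 and 26.4 CPM in mtch-1(RNAi), against 32.7, 30.8, 32.8 and 32.4 CPM in EV, with every mtch-1(RNAi) sample below every EV sample. Its log2 fold change was -0.40 (standard error 0.08, edgeR adjusted p = 0.00364). The nearest tested same-strand coding gene, cdc-48.1, lies 11244 bases away and was also called lower, at a log2 fold change of -0.32 (adjusted p = 0.00144); of the 7 called genes that overlap no annotated gene, C06A1.12 was the one whose nearest such gene was called. CD4.10, 390 bases on chromosome V, had 15.6, 14.8, 15.6 and 14.96 CPM in mtch-1(RNAi), against 11.2, 14.1, 11.8 and 10.2 CPM in EV, a log2 fold change of 0.37 (standard error 0.11, adjusted p = 0.0324). The 2 groups of CD4.10 were separate by a narrow margin, and its call was lost at adjusted p of 0.0540 to 0.102 when any sample but EV replicate 2 was left out.

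F40G9.20, annotated at 178876 to 178895 on chromosome III and given a length of 19 bases in the table, had 30, 41, 18 and 34 counts in mtch-1(RNAi), against 6, 14, 4 and 12 counts in EV. This was 1.38 ± 0.43 CPM in mtch-1(RNAi) and 0.454 ± 0.251 CPM in EV (SD, n = 4 each), with no overlap and a log2 fold change of 1.60 (standard error 0.39, edgeR adjusted p = 0.0113). The coding gene F40G9.6, 647 bases away on the same strand, had a log2 fold change of 0.94 (adjusted p = 0.0598). Of the 9 genes of at most 21 bases, F40G9.20 was called higher, 21ur-10153 lower and the other 7 not at all. Over all tested genes the shares were 8.83% higher and 12.1% lower.

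tts-2 was called higher although its groups overlapped. It lies on chromosome II at 10201125 to 10202230 and had 22.3, 9.68, 17.7 and 18.0 CPM in mtch-1(RNAi), against 12.6, 6.89, 8.40 and 11.3 CPM in EV. Replicate 2 was the lowest sample of each group, and mtch-1(RNAi) was higher in 4 of 4 same-numbered pairs. The log2 fold change was 0.78 (standard error 0.23), with an edgeR adjusted p of 0.0306 without and 1.17e-05 with the replicate block. Without the block the call was lost at adjusted p of 0.0551 to 0.0818 when mtch-1(RNAi) replicate 1, 3 or 4 or EV replicate 2 or 3 was left out, and at 0.0601 with limma-voom.

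The well-studied tts-1 on chromosome X was the second most abundant of the 145 genes, and its groups overlapped widely. It had 176.7, 120.8, 150.4 and 125.6 CPM in mtch-1(RNAi), against 169.2, 153.2, 196.8 and 118.6 CPM in EV. For tts-1 the log2 fold change was -0.15 (standard error 0.14, edgeR adjusted p = 0.489), and it was higher in 2 of 4 pairs. The Dicer inhibitor RNA gene rncs-1 had 17.8, 17.4, 12.9 and 13.8 CPM in mtch-1(RNAi) and 12.9, 17.6, 14.7 and 16.1 CPM in EV, a log2 fold change of 0.02 (standard error 0.13, adjusted p = 0.946). The ribonuclease P RNA gene rpr-1 was near the floor of detection, with 25, 18, 5 and 10 counts in mtch-1(RNAi) and 13, 6, 6 and 8 counts in EV, and was not called (adjusted p = 0.379).

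Among uncalled genes of higher level, C30E1.9 varied most between samples of a group. The table gives it 1706 bases, and the annotation a span of 16929914 to 16944683 on chromosome X that takes in the snoRNA gene F52G3.6. It had 46.9, 45.1, 23.2 and 23.9 CPM in mtch-1(RNAi), against 34.4, 31.4, 19.8 and 21.1 CPM in EV. Replicates 1 and 2 were high and 3 and 4 low in both groups, and mtch-1(RNAi) was higher in 4 of 4 pairs. The log2 fold change was 0.39 (standard error 0.24, edgeR adjusted p = 0.289), or 0.35 with an adjusted p of 0.00106 with the replicate block. linc-7, in an intron of C09G1.4 on the opposite strand, had 3.82, 5.53, 3.63 and 5.24 CPM in mtch-1(RNAi), against 2.33, 4.192, 1.93 and 3.82 CPM in EV. Its log2 fold change was 0.57 (adjusted p = 0.132), or 0.60 with an adjusted p of 0.0104 with the block. Over the 39 genes of at least 5 CPM, the median coefficient of variation between samples was 10.2% in mtch-1(RNAi) and 10.8% in EV, beside 6.32% and 6.59% over all tested genes at that level.

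**Figure D4:**
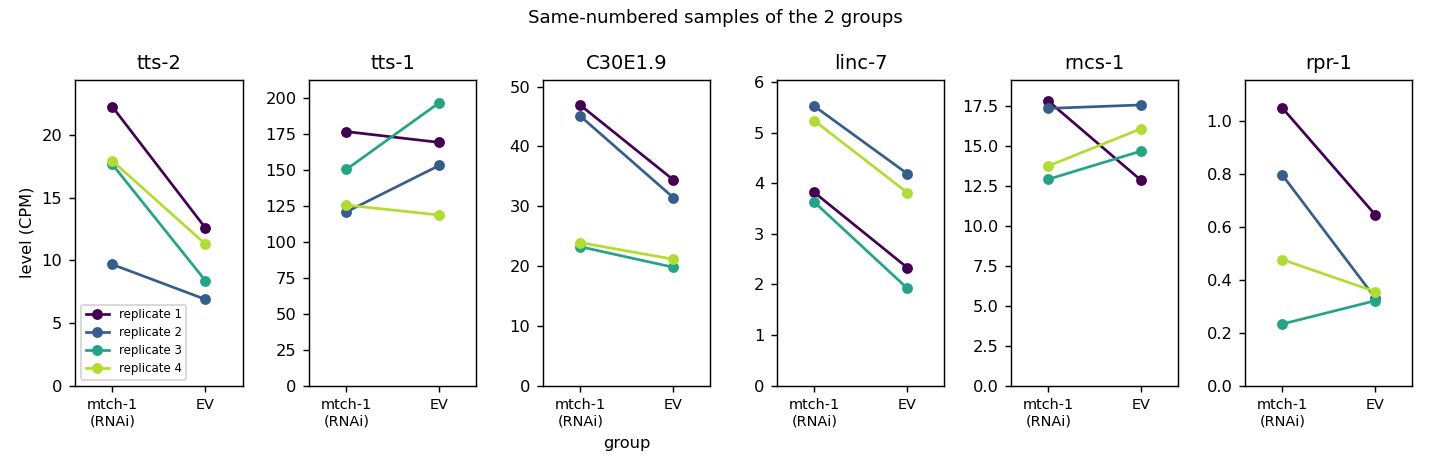
Levels in CPM (vertical axis, from 0) of tts-2, tts-1, C30E1.9, linc-7, rncs-1 and rpr-1 in each sample of mtch-1(RNAi) and EV, with lines joining samples of the same replicate number. For tts-2, C30E1.9 and linc-7 all 4 lines are higher at mtch-1(RNAi), and for tts-1 2 are higher and 2 lower.

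The 39 long intervening noncoding RNA genes held 4.13% of the counts of the 145, with mean levels of 0.257 to 7.25 CPM and 0.0974 to 11.02 CPM per kilobase. Called were 1 higher and 1 lower (2.56% each), beside 8.83% and 12.1% of all tested genes. The median log2 fold change was 0.20. The tested genes under 5 CPM had a median of 0.18, with 6.61% called higher and 1.33% lower. linc-63, on chromosome I at 3870642 to 3871267, had 9, 16, 12 and 13 counts in mtch-1(RNAi), against 35, 28, 24 and 30 counts in EV. At 0.566 ± 0.139 CPM in mtch-1(RNAi) and 1.47 ± 0.209 CPM in EV (SD, n = 4 each) its groups did not overlap, and the log2 fold change was -1.38 (standard error 0.28, edgeR adjusted p = 0.00374). It lies just downstream of clec-53, a C-type lectin gene with a log2 fold change of 0.40 (adjusted p = 0.172). linc-63 was the only called gene at least 2-fold lower.

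linc-30, on the same chromosome at 2046539 to 2048913, had 21, 24, 28 and 21 counts in mtch-1(RNAi), against 9, 13, 6 and 10 counts in EV, with no overlap. Its log2 fold change was 1.13 (standard error 0.32, edgeR adjusted p = 0.0232), and the call was lost at adjusted p of 0.0548 to 0.0621 without mtch-1(RNAi) replicate 3 or EV replicate 1, 3 or 4. The longest and most abundant of the linc genes, linc-22 with 4071 bases, had 7.30 ± 1.33 CPM in mtch-1(RNAi) and 7.20 ± 0.605 CPM in EV. linc-9, the highest of them per length, had 5.04 ± 1.32 CPM in mtch-1(RNAi) and 5.21 ± 0.618 CPM in EV (SD, n = 4 each), so neither differed by more than its spread. linc-40 was called lower with the block alone, at a log2 fold change of -0.90 and an adjusted p of 0.0386. linc-74, linc-16 and linc-2 had groups that did not overlap without a call, with log2 fold changes of 1.37, 0.78 and -0.95 and adjusted p of 0.0817, 0.133 and 0.144. Of these linc genes, linc-16, linc-2 and linc-40 share 87.3%, 65.4% and 26.2% of their length with same-strand exons of fbxa-3, pcf-11 and Y82E9BL.18. None of these coding genes was called, and their reads cannot be told apart from those of the linc genes there.

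Of the 7 anr genes, 1 was called higher, where 8.83% of all tested genes were called higher and 12.1% lower. anr-35, on chromosome II at 11170721 to 11176247, had 12, 8, 7 and 13 counts in mtch-1(RNAi), against 1, 2, 1 and 3 counts in EV. Every mtch-1(RNAi) sample exceeded every EV sample, and the fitted log2 fold change, 2.28 (standard error 0.51, edgeR adjusted p = 0.00704), rests on these few counts. DESeq2 gave it no adjusted p, and the authors' deposited table lists an adjusted p of 1 for 34 of the 145 genes, anr-35 among them. It overlaps on the opposite strand the pseudogene F37H8.2, which had 2.29 ± 0.218 CPM in mtch-1(RNAi) and 1.45 ± 0.415 CPM in EV and a log2 fold change of 0.65 (adjusted p = 0.0711). The other 6 anr genes had log2 fold changes between -0.82 and 1.19, and anr-24 was the most abundant at 1.72 CPM in mtch-1(RNAi) and 2.099 CPM in EV.

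The microRNA gene mir-8192 lies on chromosome II at 6943885 to 6944021, in a same-strand intron of flcn-1, the folliculin gene. It had 19, 19, 16 and 17 counts in mtch-1(RNAi), against 11, 4, 3 and 7 counts in EV, with no overlap. The fitted log2 fold change was 1.34 (standard error 0.39, edgeR adjusted p = 0.0269), beside 0.36 for flcn-1 (standard error 0.06, adjusted p = 0.000885), and the difference between the 2 was not tested. Its call was lost at adjusted p of 0.0501 to 0.0649 without mtch-1(RNAi) replicate 1, 2 or 4 or EV replicate 2, 3 or 4. Of the 5 other genes in same-strand introns, edgeR called 0, with 1 at an unadjusted p under 0.05, and DESeq2 and limma-voom called 0. Among all tested genes, edgeR called 8.83% higher and 12.1% lower. The coding gene was called lower for C05D2.11 (the TGF-beta receptor gene daf-4, -0.47), F19C6.12 (the G protein-coupled receptor kinase gene grk-1, -0.28) and K06A4.15 (K06A4.7, -0.78). The log2 fold changes of these 3 noncoding genes were -0.27, -0.47 and -1.04, with adjusted p of 0.238, 0.105 and 0.185. Of the 9 genes in opposite-strand introns, edgeR called 0 without and 1, linc-7, with the block. At an unadjusted p under 0.05 there were 2, and DESeq2 called 0 and limma-voom 1 of the 9. That gene, W06D12.8, was named after its values were seen. It had 5, 0, 0 and 6 counts in mtch-1(RNAi), against 7, 6, 10 and 8 counts in EV, with no overlap, and a log2 fold change of -1.61 (standard error 0.72, edgeR adjusted p = 0.133). The gene whose intron holds W06D12.8, fat-5, was itself called lower, at -0.68 (standard error 0.23, edgeR adjusted p = 0.0492). The difference between W06D12.8 and fat-5 was not tested.

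**Figure D5:**
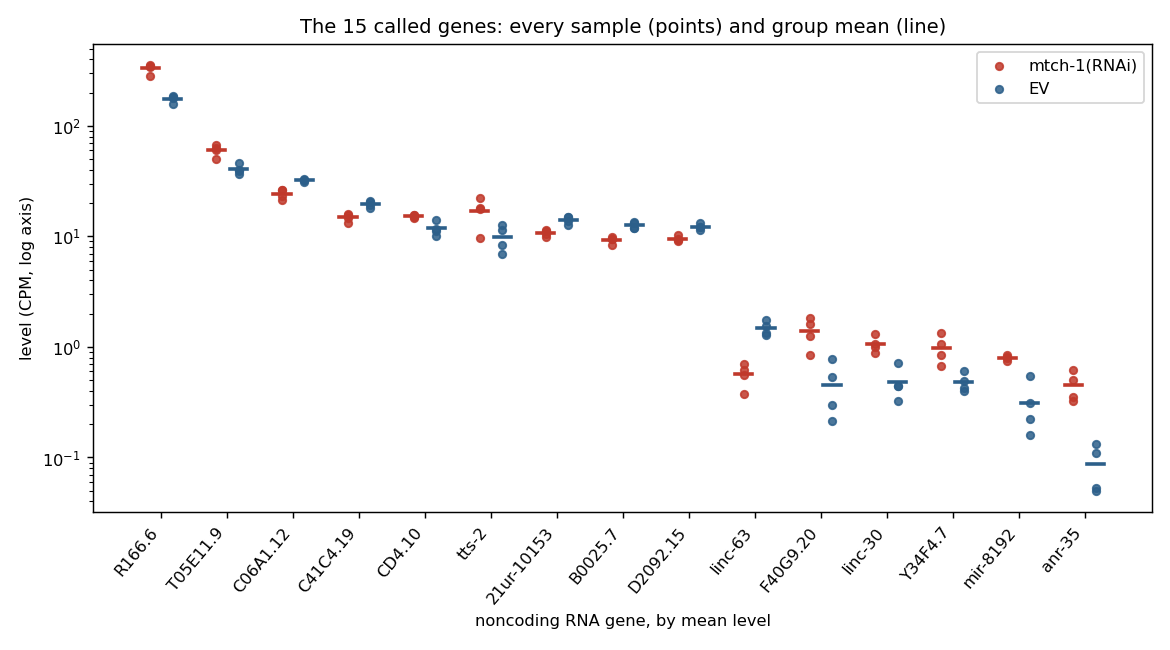
Level in CPM (log axis) of the 15 called noncoding RNA genes in each of the 4 mtch-1(RNAi) and 4 EV samples, with a line at each group mean and genes ordered by mean level. For 14 of the 15 the groups do not overlap, and for tts-2 the lowest mtch-1(RNAi) sample, at 9.68 CPM, lies below the 2 highest EV samples.

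Genes whose proteins make, trim or read noncoding RNAs were lower more often than higher. Of 51 measured genes for small RNA particles and their processing, 2 were called higher and 21 lower with a median log2 fold change of -0.15, where the median of all tested genes was 0.02 and 8.83% and 12.1% were called. All 51 but snpc-1.3 had at least 5 CPM, and over all tested genes of that level the median was -0.035 and 10.4% were called higher and 19.6% lower. Examples were ints-1, at 118.9 ± 4.6 CPM in mtch-1(RNAi) and 153 ± 9.63 CPM in EV, the Sm protein gene snr-4, at 160 ± 12.9 CPM in mtch-1(RNAi) and 205 ± 7.81 CPM in EV, and the RNA polymerase III subunit gene rpc-2, at 163 ± 6.73 CPM in mtch-1(RNAi) and 201 ± 12.4 CPM in EV (SD, n = 4 each). The 2 called higher, fib-1 and nol-58, encode proteins of the box C/D snoRNA particle that methylates ribosomal RNA, with log2 fold changes of 0.15 and 0.19 (edgeR adjusted p = 0.0251 and 0.00659). They were named after their values were seen.

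Of 46 RNA decay and surveillance genes, 3 were called higher and 13 lower, with a median log2 fold change of -0.08, where 10.4% and 19.6% of all tested genes of at least 5 CPM were called higher and lower. The lowest adjusted p belonged to smgl-1, of nonsense-mediated decay, skih-2, a helicase of the cytoplasmic exosome, and panl-3, of the PAN deadenylase, at log2 fold changes of -0.34, -0.39 and -0.28. The 3 called higher were exos-1 and exos-7, of the exosome, and paxt-1, at log2 fold changes of 0.24, 0.23 and 0.15. These 3 were named after their values were seen. Of 16 genes for double-stranded RNA handling and editing, edgeR called 0 higher (1 with the replicate block) and 7 lower, with a median of -0.14, beside the same shares over all tested genes of that level. All genes of both lists had at least 5 CPM. At an unadjusted p under 0.05 there were 0 higher, and DESeq2 and limma-voom called 0 higher as well. Among them were the RNA-dependent RNA polymerase gene rrf-3 at -0.41, the Dicer-related helicase gene drh-1 at -0.32 and the Dicer gene dcr-1 at -0.24, all with edgeR adjusted p under 0.05. Oocyte and germline markers were lower in the same samples (3 of 5 called lower), and their part in these counts was not tested.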

How the data were processed

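RNA-seq libraries of 8 whole-worm samples were used, 4 per group, grouped and numbered by their titles. The submitters' processing notes name DESeq2, featureCounts 1.5.0-p3 and HISAT2 2.0.5 with the WBcel235 build. Settings, strand use and RNA selection are not given in the sources. The authors deposited 1 table of read counts per gene. The authors also deposited a normalized signal (count divided by a size factor), FPKM values, gene lengths in bases (another unit), and their log2 fold changes with p-values; apart from the adjusted p-values, lengths and counts, these only served to check units.

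Genes with a summed count of at least 40 (14556) were tested by the quasi-likelihood F test of edgeR 4.0.16 with TMM scaling (R 4.3.3), and p-values were adjusted over all of them by Benjamini-Hochberg; all 145 noncoding RNA genes entered. An adjusted p with no tool named is edgeR's. Levels are CPM on TMM library sizes. Alternatives were DESeq2 1.42.0, limma-voom 3.58.1, other scalings and filters, a replicate block and leaving out each sample (summed count of at least 35). Positions and overlaps came from Ensembl release 115 on WBcel235. Separate cultures are not stated in the labels, and p-values therefore cover the spread among these samples alone, which may be technical. The chi-square per degree of freedom between samples of a group was 6.33 to 14.2.

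Same-numbered samples deviated together from their group means, with correlations of 0.355, 0.226, 0.248 and 0.198, all over 0.1. Among samples of unlike number, mtch-1(RNAi) replicate 3 and EV replicate 4 had 0.162. The labels name no shared day, so the pairing rests on these data alone. The fits were tested on simulated data. Genes named were the called ones without overlap, the 10 highest per length, those with a gene name, mtch-1 and up to 3 called genes per list; tts-2 and others were also described because of the block, their overlap with coding genes or their variation, after their values were seen. Genes and lists were chosen with earlier results of these data known. No sequences are printed.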

Additional observations from a re-analysis of the deposited data

Results flagged for a closer look

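In 11 of 144 groups of 4 samples tested, 1 sample stood apart from the other 3 by Dixon's criterion for 4 values; chance alone flags about 1 in 20 groups. In mtch-1(RNAi), R166.6 had 280.7 CPM in replicate 3, below 343.7 to 353.0 CPM in the others, linc-35 had 0.286 CPM in replicate 4, below 0.442 to 0.465 CPM, anr-34 had 0.546 CPM in replicate 1, above 0.310 to 0.333 CPM, and linc-60 had 0.663 CPM in replicate 2, above 0.0953 to 0.186 CPM. In EV replicate 2, linc-107 had 1.048 CPM, linc-45 had 0.772 CPM and linc-12 had 0.496 CPM, each above the other 3 samples. In EV replicate 4, anr-32 had 0.0888 CPM, linc-16 had 0.266 CPM and linc-81 had 0.666 CPM, each below the others. In EV replicate 1, rpr-1 had 0.645 CPM, above 0.321 to 0.355 CPM. Except for R166.6, these levels stand for few reads.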

How the results depend on the processing

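No named gene that was called changed direction under any alternative that was run. The count of genes called lower was 10 with the replicate block, against 6 without it, and 2 among the 66 genes that share no exon. Leaving out 1 sample gave 4 to 8 genes called higher and 4 to 8 called lower. For small RNA particle genes it gave 1 to 2 higher and 15 to 20 lower, for decay genes 2 to 3 higher and 10 to 15 lower, and for double-stranded RNA genes 0 higher and 6 to 7 lower. The double-stranded RNA list had 1 gene higher with the replicate block. The log2 fold change of mtch-1 was -2.68 to -2.43. The summed level was 917.9 CPM in mtch-1(RNAi) and 913.9 CPM in EV without R166.6, and 387.9 and 379.1 CPM over genes sharing no exon. Calls under RLE scaling, DESeq2, limma-voom, filterByExpr and no count filter numbered 8 to 9 higher and 5 to 7 lower. The default edgeR filter kept 105 of the 145 genes, and DESeq2 gave an adjusted p to 109. Of the 145 genes, 69 lay under 1 CPM, where standard errors were wider than over all tested genes. The cause of these differences was not tested.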
